A study of Rattus norvegicus with 9 samples.

Results

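miR-204-5p and miR-211-5p are sister microRNAs, and they were followed here through the exosomes (small vesicles shed by cells) of rat primary peritoneal macrophages. They were chosen by name, with earlier results of these data known. They are 2 of the 201 mature miRNAs in the study's count table. With them were taken all tags (distinct read sequences) that carried their mature or hairpin names, 18 of 485728 distinct tags. There were 9 small RNA libraries in 3 groups of 3. In LPS+AS-IV, the plant saponin astragaloside IV was given at 150 µM for 24 h before lipopolysaccharide (LPS), a bacterial cell wall component that activates macrophages. LPS cultures received LPS at 100 ng/ml for 6 h, and Control cultures received 0.1% DMSO for 24 h. Both agents were dissolved in DMSO, so DMSO was common to all groups, but the labels give its final concentration for Control alone. All cells came from the lavage of untreated rats, and all were kept in medium with fetal bovine serum. The labels do not say that serum vesicles were removed, and the mature miR-204-5p of cattle has the same sequence as that of rat, so reads of bovine and rat origin cannot be told apart. The labels do not tie replicates to separate rats or dishes. The p-values therefore measure spread between these libraries, which may be technical.

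A miRNA guides the Argonaute protein to messenger RNAs through its seed, bases 2 to 8, and lowers the output of those messages. miR-204 and miR-211 are copied from introns of the ion channel genes TRPM3 and TRPM1. They are best known from retinal pigment epithelium, melanocytes, the choroid plexus and the pancreatic islet, where they help to hold cells in an epithelial, differentiated state, and miR-204 has been described as anti-fibrotic in several organs. The series title ties miR-204-5p to Foxc1, a forkhead transcription factor, and to peritoneal fibrosis. How the study came to pick miR-204-5p, on these libraries or otherwise, was not given in the sources used here.

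The sequences below show why the members form a family and how closely they resemble each other. They are from RefSeq (rat build GRCr8), 5′ to 3′, with the seed in capitals.
rno-miR-204-5p: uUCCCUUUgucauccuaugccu
rno-miR-211-5p: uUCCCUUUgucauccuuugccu
Of 693 rat mature miRNAs in that table, these 2 share the seed. They match at 21 of 22 bases, and the difference is A17U, counted from 1 at the 5′ end of miR-204-5p. A read of miR-204-5p with that A misread as U would be counted for miR-211-5p, so a low count of miR-211-5p beside a higher count of miR-204-5p is uncertain. miR-204-5p lies at chr1:229743493-229743514 (plus strand) inside the span of Trpm3, and miR-211-5p at chr1:127189353-127189374 (plus strand) inside the span of Trpm1. The hairpins from which they are cut are given with the mature 5p arm in capitals, since the base that follows the arm decides which longer tags are templated.
Mir204 hairpin: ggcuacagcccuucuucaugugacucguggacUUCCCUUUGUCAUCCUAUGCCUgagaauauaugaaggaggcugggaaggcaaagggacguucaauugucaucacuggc
Mir211 hairpin: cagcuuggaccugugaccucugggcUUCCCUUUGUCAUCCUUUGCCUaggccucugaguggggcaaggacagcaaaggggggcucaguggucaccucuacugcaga
The arm on the opposite side of the hairpin, miR-204-3p or miR-211-3p, had 0 reads in the 9 libraries under any label.

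Reads in the miRNA table lay between 15426 (LPS+AS-IV 1) and 546599 (LPS+AS-IV 3) per library, out of 3484099 to 9527483 assigned reads. LPS+AS-IV 3 stood apart with the most table reads of any library. Values below are CPM, the table's reads scaled to 1e+06 per library with TMM factors (trimmed mean of M-values). A library's floor is the CPM of 3 reads, the most that a count of 0 allows. It was 216 CPM for LPS+AS-IV 1, 5.99 for LPS+AS-IV 3 and between 40.3 and 108 for the other 7. Reads were made by PCR without stated molecular identifiers, so the intervals and the floors hold for counting error alone.

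miR-204-5p was a mid-abundance miRNA with its lowest values in the LPS group, whose cells received LPS without the saponin. It had 25, 159 and 681 reads in LPS+AS-IV libraries 1 to 3, against 3, 1 and 20 reads in LPS and 75, 54 and 63 reads in Control. In CPM it was 1803, 2424 and 1360 in LPS+AS-IV, 108, 17.1 and 321 in LPS, and 1619, 1613 and 847 in Control. No LPS library reached the lowest library of the other groups, while LPS+AS-IV and Control overlapped. LPS 1 was at its floor and LPS 2 was under it, so LPS 3 alone gives a level there above the counting limit. As a share of the table's reads with 95% Wilson intervals, LPS 3 stood at 0.0325% (0.0210 to 0.0502), and LPS 1 at 0.0118% (0.00400 to 0.0346). The lowest library outside the LPS group on this scale, Control 3, stood at 0.0834% (0.0652 to 0.107), so the intervals did not overlap here. In bulk exosome RNA, fewer vesicles that carry a miRNA and less of it per vesicle cannot be told apart.

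**Figure D1:**
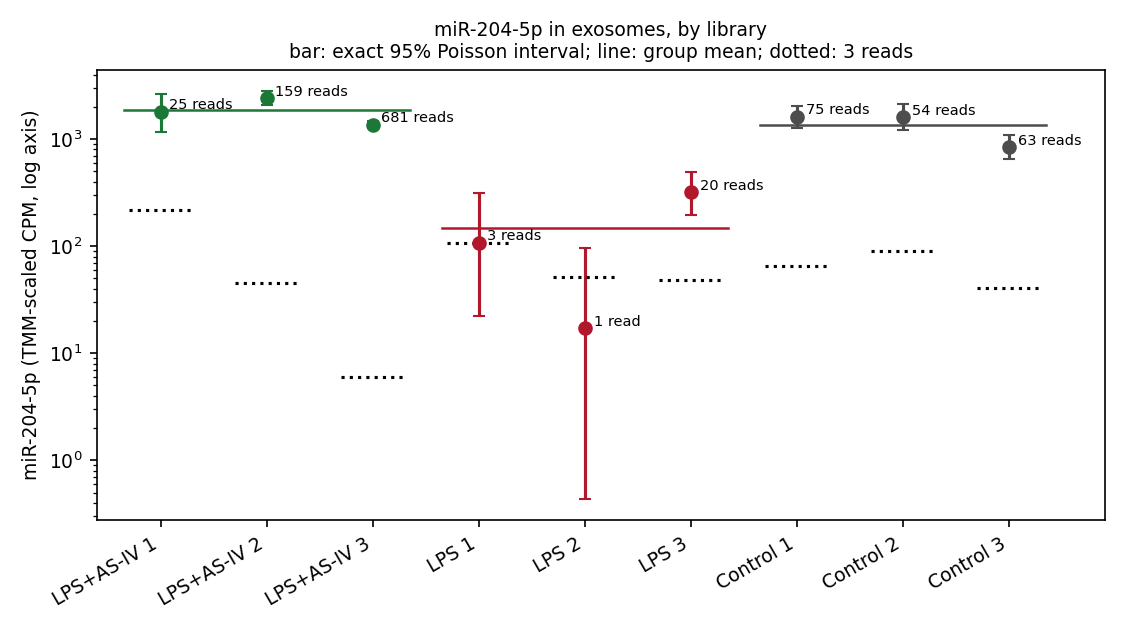
miR-204-5p by library in TMM-scaled CPM (vertical log axis), with the reads beside each point, exact 95% Poisson intervals as bars, group means as lines and the floor of 3 reads as dotted lines. The LPS points, 17.1 to 321 CPM, sit below all points of LPS+AS-IV (1360 to 2424) and Control (847 to 1619).

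By rank within its library, miR-204-5p stood at 46, 42 and 55 in LPS+AS-IV, at 81, 83 and 76 in LPS and at 50, 48 and 66 in Control, among 94 to 120 miRNAs detected. The rank needs no scaling between libraries, and it separates LPS from both other groups in the same way. It comes from the same reads and so is not separate evidence. How many other miRNAs separate by rank was not counted. Of the 94 miRNAs with enough reads to be tested, miR-204-5p was the only 1 (1.06%) with every LPS library below all 6 others, a pattern found in the same libraries as the earlier results. It stayed so as a percent of table reads, relative to all assigned reads and in units of the modal tag count described below. These scales reuse the same reads of miR-204-5p and so are not separate evidence. A share this small can also arise from a random order of the libraries. When tags with 0 or 1 mismatch were summed, miR-1249 and miR-26b-5p shared the pattern, and the count was 3 of 94 (3.19%). Per 1e+06 assigned reads the gap was narrow, with 2.62 in LPS+AS-IV 1, the lowest outside the LPS group, against 2.24 in LPS 3. The exact 95% Poisson intervals of their reads, 16.2 to 36.9 and 12.2 to 30.9, overlapped.

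The first comparison, LPS+AS-IV against LPS, addresses whether exosomes of LPS-treated macrophages differed with the saponin. Its 24 h of saponin came on top of the 6 h of LPS, and no vehicle of that length is listed for LPS. Saponin and listed treatment time therefore cannot be told apart. miR-204-5p averaged 1862 ± 534 CPM in LPS+AS-IV, against 149 ± 156 CPM in LPS (SD, n = 3 each), a ratio of means of 12.5. Its fitted log2 fold change was 3.63 (SE 1.997), rank 5 from the highest of 94, where the 5th to 95th percentiles of all tested miRNAs ran from -2.25 to 3.52. In edgeR's quasi-likelihood fit the unadjusted p was 0.0911 and the Benjamini-Hochberg adjusted p was 0.963, so the difference did not pass. The exact permutation test of the CPM difference gave p = 0.1 two-sided, the smallest that 3 against 3 libraries allow (0.15 adjusted over the 3 comparisons). edgeR called 0% of the 94 miRNAs here, with 3 (3.19%) at an unadjusted p under 0.05. DESeq2 called 3 miRNAs and gave miR-204-5p an unadjusted p of 0.0321 and an adjusted p of 0.588, so miR-204-5p was not among them. Every LPS+AS-IV library was above every LPS library for 4 of 94 miRNAs (4.26%), miR-204-5p among them.

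LPS+AS-IV against Control addresses what differed after both treatments. miR-204-5p averaged 1862 ± 534 CPM in LPS+AS-IV, against 1360 ± 444 CPM in Control (SD, n = 3 each), and the libraries overlapped. Of 94 miRNAs, 5 (5.32%) had every LPS+AS-IV library above every Control library and 5 (5.32%) had every one below. The log2 fold change was 0.45 (SE 1.80), with an edgeR adjusted p of 0.981 (2.13% of 94 miRNAs called). Those calls were lost when each tag was given to 1 miRNA in all libraries. The exact permutation p was 0.4 (0.4 adjusted). This ratio depended on the denominator. It was 1.37 in CPM and 1.02 in units of the modal tag count, but 4.35 relative to all assigned reads. On that last scale LPS+AS-IV 3 alone stood at 102 and the other 2 at 2.62 and 17.5, against 7.67 to 10.4 in Control (reads per 1e+06 assigned).

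LPS against Control sets 6 h of LPS beside 24 h of DMSO, so the agent and the listed treatment time cannot be told apart. miR-204-5p averaged 149 ± 156 CPM in LPS, against 1360 ± 444 CPM in Control (SD, n = 3 each). The log2 fold change was -3.18 (SE 1.96), rank 7 from the lowest of 94. It lay inside the 5th to 95th percentiles of all tested miRNAs, -4.88 to 2.51. By edgeR the unadjusted p was 0.128 and the adjusted p 0.802 (1.06% of 94 miRNAs called, and 6.38% at an unadjusted p under 0.05). No call remained when each tag was given to 1 miRNA in all libraries. The exact permutation p was 0.1, the smallest possible here (0.15 adjusted). Every LPS library was below every Control library for 11 of 94 miRNAs (11.7%), miR-204-5p among them, and every LPS library was above every Control library for 7 (7.45%). The comparisons share libraries, and the values with LPS rest on the same 3 LPS libraries. Without LPS 3 the log2 fold changes were 4.74 in LPS+AS-IV against LPS and -4.32 in LPS against Control, and without LPS 2 they were 2.89 and -2.44. None of these passed.

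**Figure D2:**
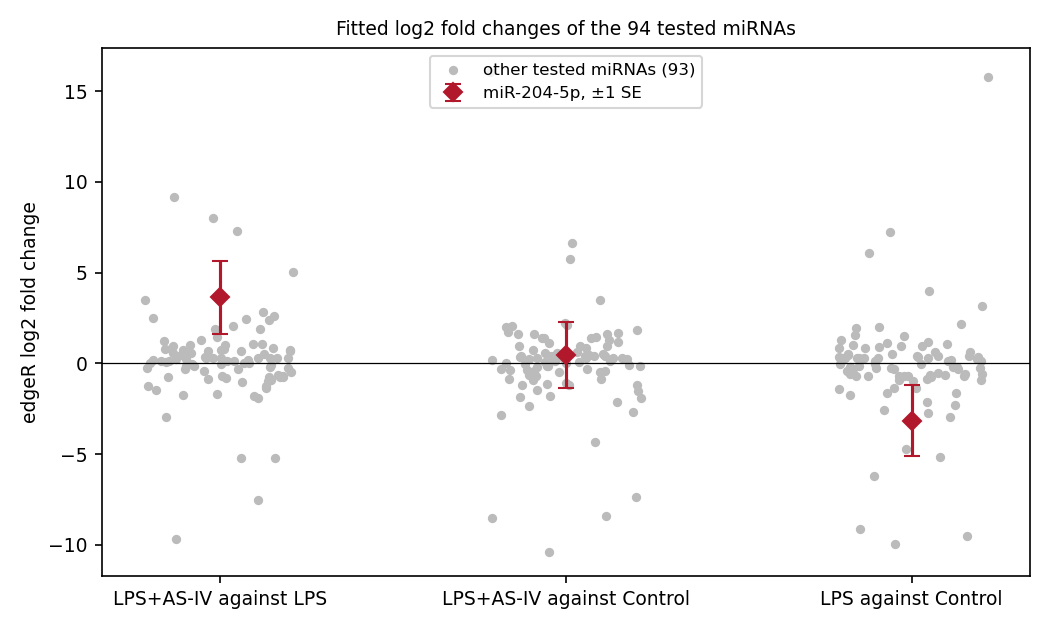
edgeR log2 fold changes (vertical axis) of the 94 tested miRNAs in the 3 comparisons, with miR-204-5p as a diamond with ±1 SE and the other 93 as grey points. miR-204-5p stands at 3.63, 0.45 and -3.18, toward the upper end, the middle and the lower end of the grey points, and its SE is 1.997, 1.80 and 1.96.

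Nearly all table reads of miR-204-5p came from tags that differ by 1 base at the 3′ end, and the balance between them varied across the LPS+AS-IV libraries. The deposited tags are shown in DNA letters, with capitals for bases that extend past or differ from the mature sequence.
22-nt tag: ttccctttgtcatcctatgcct
23-nt tag: ttccctttgtcatcctatgcctG
The added G is the next base of the hairpin, so the longer tag is a templated form. The pair held 99.9% of the 1081 reads of miR-204-5p. The 23-nt tag gave 18, 0 and 401 reads in LPS+AS-IV, against 0, 0 and 1 in LPS and 1, 1 and 0 in Control. The 22-nt tag gave 7, 159 and 279 reads in LPS+AS-IV, 3, 1 and 19 in LPS, and 74, 53 and 63 in Control. LPS+AS-IV 1 and LPS+AS-IV 3 were thus the libraries where the longer form led. The 22-nt share was 28% (95% Wilson interval 14.3 to 47.6) and 41.0% (37.3 to 44.7) in those, and it was 100% (97.6 to 100) in LPS+AS-IV 2. It was at least 95% in the 6 other libraries, though LPS 1 and LPS 2 rest on 3 and 1 reads.

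The read-weighted mean tag length was 22.4 ± 0.384 nt in LPS+AS-IV, 22.02 ± 0.0289 nt in LPS and 22.01 ± 0.00955 nt in Control (SD, n = 3 each). It did not separate the groups, with an exact permutation p of 0.4 in LPS+AS-IV against LPS, 0.4 in LPS+AS-IV against Control and 1 in LPS against Control (0.6, 0.6 and 1 adjusted). Over all mature miRNA tags the mean length was 22.3 to 22.7 nt per library. It was 22.7, 22.3 and 22.5 nt in LPS+AS-IV libraries 1 to 3, in the same order as the 22.7, 22 and 22.6 nt of miR-204-5p, and its part in the result was not tested.

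Tags outside the table added 3′ variants. They carried the hairpin name with a score of 1 in the files, or the name of an Rfam family, and each family tag kept 1 label in every library where it occurred. The ones with over 10 reads for miR-204-5p are these.
24-nt hairpin tag: ttccctttgtcatcctatgcctGT
23-nt hairpin tag: ttccctttgtcatcctatgcctA
25-nt Rfam tag: ttccctttgtcatcctatgcctGAA
The T at the end of the 24-nt tag, the A at the end of the 23-nt tag and the last A of the 25-nt tag do not match the hairpin. Such ends are called untemplated here for that mismatch alone. Whether the bases were added to the RNA or are misread was not tested. The 24-nt tag had 36, 4 and 1 reads in Control and 3 in LPS 3, with 0 in the other 5 libraries. The 23-nt A tag had 17 reads in LPS+AS-IV 1 alone, and the 25-nt tag had 42 reads in Control 3 alone. Each of the larger values thus came from a single library. Tags with untemplated 3′ bases under the hairpin name held 72 reads over 5 sequences. Among these are tags changed at base 22 of the mature sequence, T22G and T22A. Another 5 tags, which differ inside the sequence, held 7 reads. Of these, 1 under the mature name has an inserted G, and the others have a changed base. A 21-nt tag with 2 reads, in Control 1, matches the hairpin in full but carries the same score of 1.

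With all tags nearest to miR-204-5p counted, whatever their label, the reads were 44, 161 and 691 in LPS+AS-IV, 3, 1 and 24 in LPS, and 117, 58 and 107 in Control. Relative to the table count, LPS+AS-IV 1, Control 3 and Control 1 gained most. LPS stayed lowest, and the log2 fold change was 3.64 in LPS+AS-IV against LPS (SE 1.65, edgeR unadjusted p = 0.0474, adjusted p = 0.987). It was -3.46 in LPS against Control (SE 1.64, edgeR unadjusted p = 0.0560, adjusted p = 0.585). Hairpin-labelled tags made up 43.2%, 0.625% and 1.30% of the miR-204-5p reads in LPS+AS-IV, 0%, 0% and 16.7% in LPS, and 35.3%, 6.90% and 3.08% in Control. Over all miRNAs that share was 42.0% to 45.9% in every library, so miR-204-5p lay under it in all libraries but LPS+AS-IV 1.

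**Figure D3:**
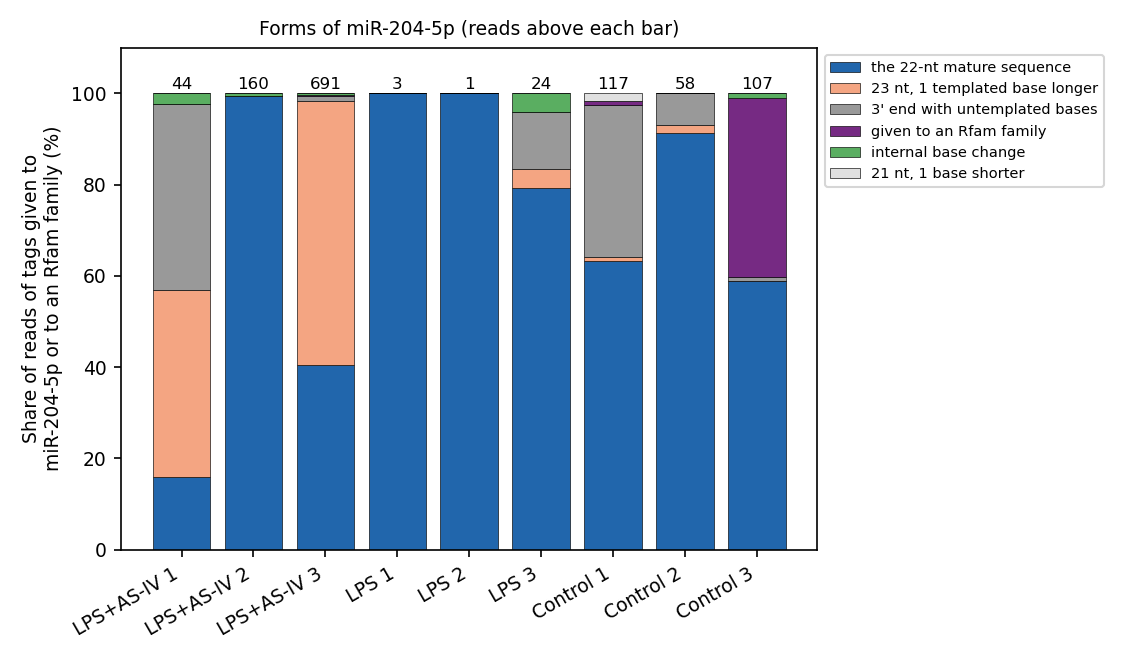
Share of reads (vertical axis, %) in each form of miR-204-5p by library, hairpin-labelled and Rfam-labelled tags included, with the reads above each bar. The 23-nt form is large in libraries 1 and 3 of LPS+AS-IV, untemplated ends are large in LPS+AS-IV 1 and Control 1, and the Rfam-labelled form in Control 3.

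The reads were also set against the usual size of a tag. Among tags with 8 reads or more, sorted into bins 0.5 wide on the log2 scale, the fullest bin (the modal count) lay at 108, 53.8 and 609 reads per tag in LPS+AS-IV, 53.8, 76.1 and 108 in LPS, and 38.1, 38.1 and 76.1 in Control. In units of this modal count, miR-204-5p came to 0.232, 2.95 and 1.12 in LPS+AS-IV, 0.0557, 0.0131 and 0.186 in LPS, and 1.97, 1.42 and 0.828 in Control. So all reads of miR-204-5p in a library equalled at most 2.95 tags of the common size. LPS values were under 1 such tag in each library, as were LPS+AS-IV 1 (0.232) and Control 3 (0.828). LPS+AS-IV 3, with 681 reads, held 1.12 of its own unit. Whether the modal count is the yield of a single captured molecule was not tested.

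**Figure D4:**
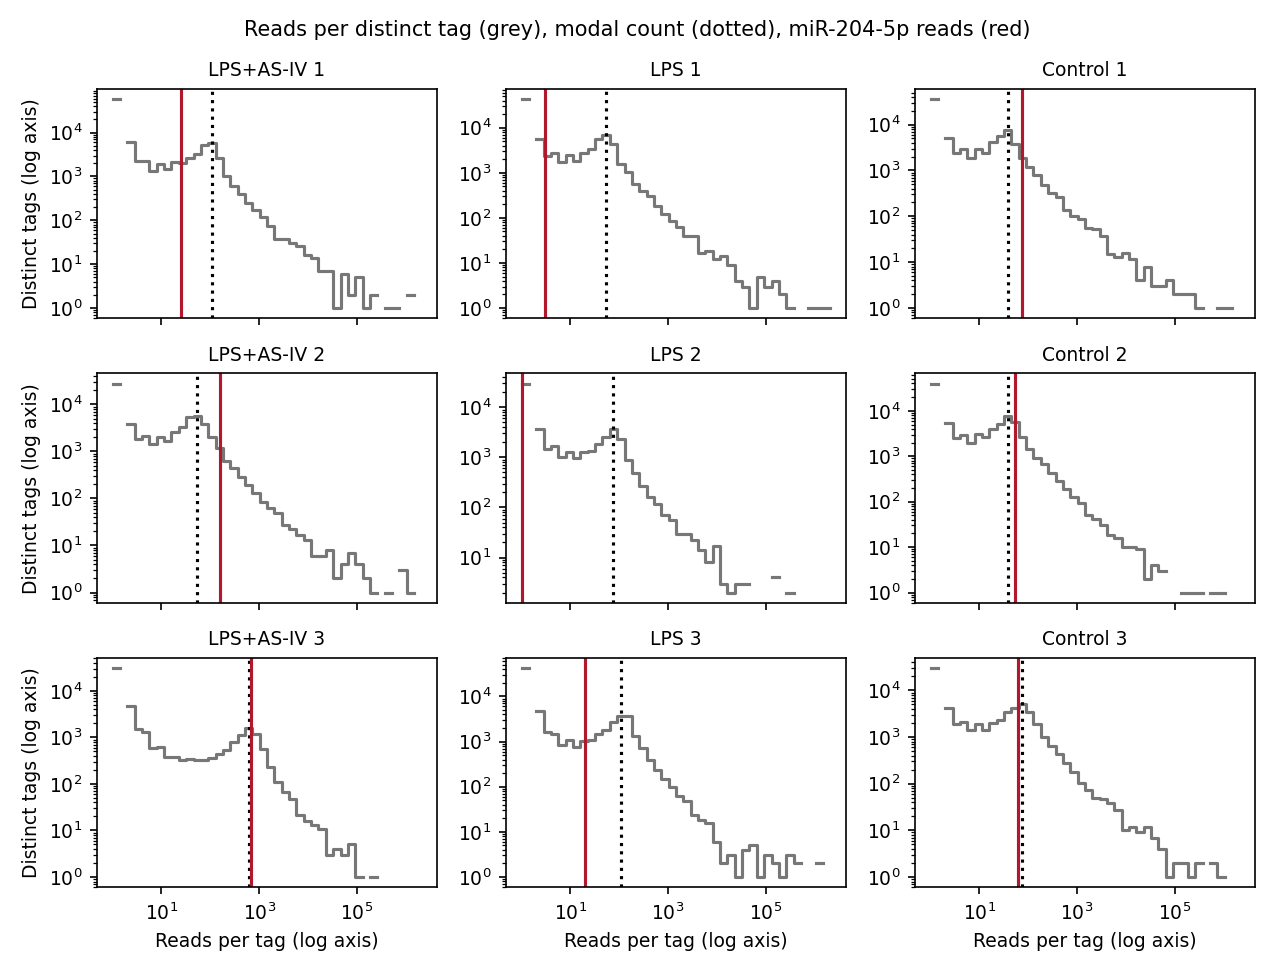
Distinct tags (vertical log axis) by reads per tag (horizontal log axis) in each library, with the modal count of tags of 8 reads or more as a dotted line and the total miR-204-5p reads as a red line. The red line lies left of the dotted line in the 3 LPS libraries, LPS+AS-IV 1 and Control 3, and at most 2.95 modal counts along in the others.

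miR-211-5p, the sister that retinal pigment cells and melanocytes express from Trpm1, had no reads in most libraries. It had 17 reads in Control 2 and 1 read in LPS+AS-IV 2, and 0 in the other 7 libraries. A count of 0 allows a share of up to 0.0194% of table reads for LPS+AS-IV 1, or 0.000549% for LPS+AS-IV 3, and between 0.00397% and 0.0118% in the other 5. The 17 reads of Control 2 were 0.0551% of its table and 31.5 per 100 reads of miR-204-5p there. The single read of LPS+AS-IV 2 was 0.629 per 100. The share of miR-211-5p in Control 2 was above that of miR-204-5p in any LPS library, at most 0.0325%. All 18 reads came from 1 tag, the full mature sequence. The filter on low counts kept miR-211-5p out of the 94 miRNAs tested, and in the edgeR fit of all 201 miRNAs without that filter it was not called in any comparison. Detection in 1 library of a group supports no order of groups.
Tag of miR-211-5p: ttccctttgtcatcctttgcct
Control 1 hairpin tag: ttccctttgtcatccttCgcct
LPS 1 hairpin tag: ttccTtttgtcatcctttgcct
Both hairpin tags had 11 reads, each in the library named and no other, and they differ from miR-211-5p by T18C and C5T, counted from the 5′ end of miR-211-5p in DNA letters. With them and 2 single-read tags, the reads given to miR-211-5p came to 0, 2 and 0 in LPS+AS-IV, 11, 0 and 0 in LPS, and 11, 18 and 0 in Control. A single-read tag, in LPS+AS-IV 2, lies 1 base from either member, and it is also among the 161 reads nearest to miR-204-5p above. Whether these are real copies of miR-211 or altered reads was not tested.

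The miRNAs whose levels over the 9 libraries were most like those of miR-204-5p were found by Pearson's r of log2 CPM among the 93 other tested miRNAs. They were miR-21-5p (r = 0.81), a miRNA abundant in activated and fibrotic tissue, miR-877 (0.76), which is made from a short intron without Drosha, miR-3596d (0.68), miR-27a-3p (0.66) and miR-26b-5p (0.61). The r values describe 9 libraries that share sizes and scaling, and carry no test. miR-21-5p had 21, 428 and 493 reads in LPS+AS-IV, 5, 4 and 298 in LPS, and 120, 83 and 231 in Control. Like miR-204-5p it was low in LPS 1 and LPS 2 and higher in LPS 3. In LPS 3, unlike miR-204-5p, it had a CPM exceeded in LPS+AS-IV 2 alone. miR-27a-3p had 131, 1 and 106 reads in LPS, so it was low in LPS 2 alone. Within groups, after each group's mean was taken out, r was 0.85 for miR-21-5p and 0.73 for miR-877. These miRNAs were picked by an r that includes the spread within groups, so this is not separate evidence of likeness. miR-98-5p, rank 11 by r, had 0.82 within groups.

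**Figure D5:**
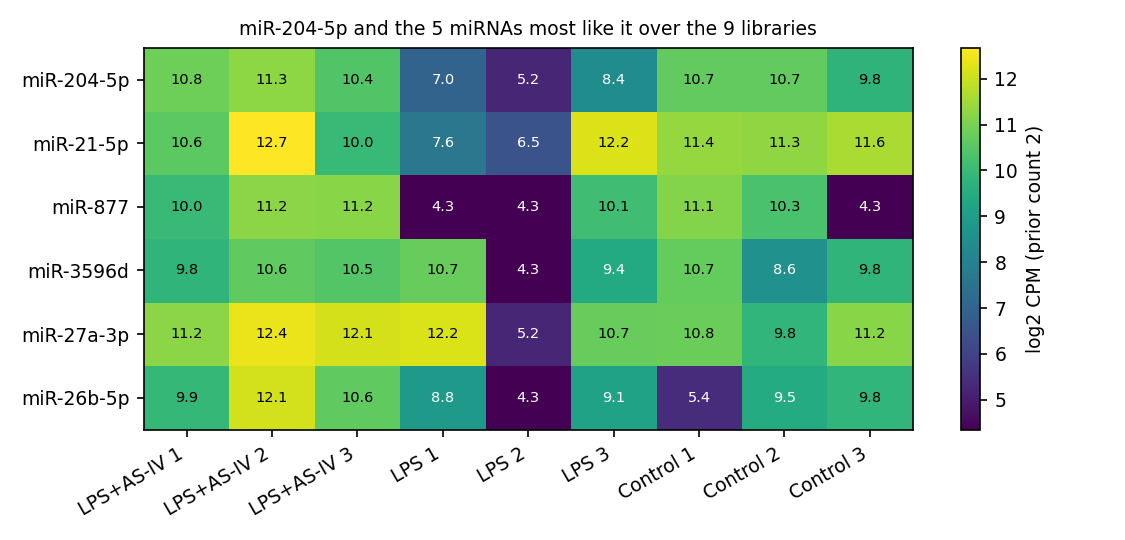
log2 CPM (colour and figures in cells, prior count 2) of miR-204-5p and the 5 miRNAs most like it, by library in columns. LPS 2 holds the lowest value of miR-204-5p, miR-21-5p, miR-3596d, miR-27a-3p and miR-26b-5p, and of the 6 only miR-204-5p has every LPS value below every other.

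Other miRNAs tied to fibrosis or to LPS are given by counts, beside those of all 94 tested miRNAs. Over all 94, 57 were fitted higher in LPS+AS-IV against LPS, 54 in LPS+AS-IV against Control and 45 in LPS against Control, with median log2 fold changes of 0.19, 0.21 and -0.04. Of 13 miRNAs that restrain fibrosis or the epithelial to mesenchymal transition (the miR-29, miR-30 and miR-200 families), 9 had reads and 3 were tested, and 0 passed in either direction in any comparison by edgeR. A higher fitted level in LPS+AS-IV than in LPS was found for 1 of the 3, with a median log2 fold change of -0.75. miR-30d-5p, the most abundant of them, stood at 5084 ± 6392 CPM in LPS+AS-IV, 817 ± 756 in LPS and 1220 ± 591 in Control (SD, n = 3 each). miR-30b-5p had 15, 1 and 1 reads in LPS+AS-IV, 16, 49 and 99 in LPS, and 0, 0 and 1 in Control, with its highest group where miR-204-5p has its lowest. In LPS+AS-IV against Control all 3 were fitted higher, with a median of 2.05. In LPS against Control 2 of 3 were fitted higher, with a median of 2.15.

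Of 7 pro-fibrotic miRNAs, 6 had reads and 5 were tested, and 0 passed in any comparison. The numbers fitted higher were 3 of 5 in LPS+AS-IV against LPS (median log2 fold change 0.82, against 0.19 over all 94), 4 of 5 in LPS+AS-IV against Control (1.10, against 0.21) and 2 of 5 in LPS against Control (-0.64, against -0.04). In each comparison these medians have the sign of the miR-204-5p value, but so do the medians over all 94. The list holds miR-21-5p, the miRNA most like miR-204-5p. miR-34a-5p, which p53 induces, stood at 9457 ± 10982 CPM in LPS+AS-IV, 10109 ± 3226 in LPS and 4410 ± 1414 in Control (SD, n = 3 each). Of 8 LPS-responsive miRNAs, 6 had reads and were tested, and 0 passed. The numbers fitted higher were 3 of 6 in LPS+AS-IV against LPS (median 0.13, against 0.19 over all 94), 5 of 6 in LPS+AS-IV against Control (0.64, against 0.21) and 4 of 6 in LPS against Control (0.53, against -0.04). miR-146a-5p, a brake on Toll-like receptor signalling and the most abundant of them, stood at 34718 ± 29518 CPM in LPS+AS-IV, 20601 ± 7331 in LPS and 27353 ± 11989 in Control (SD, n = 3 each). miR-21-5p averaged 3008 ± 3057 CPM in LPS+AS-IV, 1675 ± 2687 in LPS and 2725 ± 334 in Control (SD, n = 3 each). The group means of both ran in the order of miR-204-5p, lowest in LPS, within wide SDs. miR-222-3p, which is induced by LPS, averaged 6313 ± 2510 CPM in LPS+AS-IV, 12082 ± 2702 in LPS and 6720 ± 2601 in Control (SD, n = 3 each), with its highest mean in LPS.

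Markers of the cells named by the labels were sparse beside those of blood and serum. Of 5 macrophage and myeloid miRNAs 3 had reads, and their summed level was 0 to 4529 CPM in LPS+AS-IV, 0 to 6029 in LPS and 329 to 3109 in Control. miR-223-3p, the myeloid miRNA, had 0, 99 and 944 reads in LPS+AS-IV, 0, 0 and 219 in LPS, and 36, 11 and 113 in Control. It was thus at 0 in LPS+AS-IV 1, LPS 1 and LPS 2, the last 2 being the libraries with the fewest reads of miR-204-5p. The other members did not follow miR-204-5p in this way. miR-342-3p had 0, 67 and 1322 reads in LPS+AS-IV, 0, 1 and 110 in LPS, and 54, 0 and 1 in Control. miR-142-5p had 0, 0 and 1 reads in LPS+AS-IV, 0, 0 and 47 in LPS, and 54, 0 and 1 in Control. Both were at 0 in Control 2, where miR-204-5p had 54 reads. Markers of liver, serum and blood cells (6 of 6 with reads) summed to 55823 to 88094 CPM in LPS+AS-IV, 61563 to 69121 in LPS and 71807 to 80970 in Control, led by erythroid miR-451-5p and lymphocyte miR-150-5p. Erythroid miR-144-3p was at 0 in LPS and had 1 read in each other group. The endothelial miRNAs (2 of 2 with reads, nearly all miR-126a-3p) summed to 4616 to 12866 CPM in LPS+AS-IV, 1924 to 5307 in LPS and 6870 to 12608 in Control, so the lowest values were in LPS as for miR-204-5p, though the ranges of LPS+AS-IV and LPS overlapped. Markers of retina, neurons and endocrine cells, the tissues rich in miR-204 and miR-211, had reads for 7 of 9. They summed to 633 to 1037 CPM in LPS+AS-IV, 1007 to 2245 in LPS and 874 to 3883 in Control. miR-182, miR-183-5p and miR-96-5p had at most 2 reads in any library. miR-7a-5p averaged 654 ± 566 CPM in LPS+AS-IV, 583 ± 519 in LPS and 1492 ± 609 in Control (SD, n = 3 each). miR-129-5p instead had its highest mean in LPS, with 210 ± 363 CPM in LPS+AS-IV, 717 ± 621 in LPS and 348 ± 604 in Control. miR-375-3p averaged 24.7 ± 41.1 CPM in LPS+AS-IV, 133 ± 105 in LPS and 354 ± 358 in Control. In each of these 4 marker lists edgeR called 0 miRNAs higher and 0 lower in every comparison, where it called 0%, 2.13% and 1.06% of all 94. In LPS+AS-IV against LPS, LPS+AS-IV against Control and LPS against Control, the median log2 fold changes were 0.50, 1.01 and 0.51 for the 2 tested macrophage miRNAs, against 0.19, 0.21 and -0.04 over all 94. They were 0.25, -0.17 and -0.20 for 5 blood and serum miRNAs, -1.72, -1.20 and -1.35 for 3 retinal, neural and endocrine ones, and 1.25, -0.39 and -1.64 for miR-126a-3p. The part of these cell sources in the miR-204-5p values was not tested.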

How the data were processed

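The authors sequenced small RNA of exosomes on the BGISEQ-500, per the labels' protocols. The submitters' processing notes list Bowtie2 and Rnor_6.0, with no role. The miRBase release, trimmer and counter were not given in the sources used here. The deposited table held whole-number read counts per mature miRNA, and a second column per library, headed exp, whose making is not stated. The deposited files of single libraries held a count per tag of 15 to 45 nt with 1 assignment, and a score, the number of mismatches for miRNA tags, per the file headers. For both members, summed mature tags gave the table's values.

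Read counts were tested with the quasi-likelihood method of edgeR 4.0.16 (R 4.3.3), with TMM factors, filterByExpr defaults and 1 fit over the 9 libraries, with Benjamini-Hochberg adjustment over 94 miRNAs and a threshold of 0.05. The other 107 miRNAs fell under the filter. The common biological coefficient of variation was 1.42. An SE is the absolute log2 fold change divided by the square root of F. Exact permutation tests were two-sided. DESeq2 1.42.0 served as an alternative. The labels do not tie same-numbered replicates together and their correlations were weak, so the main fit used no block. Sequences were matched to RefSeq (GRCr8) by name, which matched 182 of 201 table names. The named miRNAs are the members, the 5 most like miR-204-5p by Pearson's r, and up to 4 of the most abundant per list. miR-223-3p, miR-342-3p, miR-142-5p, miR-129-5p, miR-375-3p and members at or near 0 were named after their values were seen. Members and lists were chosen with earlier results of these data known.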

Additional observations from a re-analysis of the deposited data

Results flagged for a closer look

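Family tags outside the table, with over 3 reads in a treated library and 0 in the 3 Control libraries, were looked at again. The 23-nt tag ttccctttgtcatcctatgcctA, miR-204-5p with an untemplated A, had 17 reads in LPS+AS-IV 1. The 23-nt tag ttccctttgtcatcctatgccGG, nearest to miR-204-5p, had 7 reads in LPS+AS-IV 3, with 1 more in LPS+AS-IV 1. The 22-nt tag ttccTtttgtcatcctttgcct, nearest to miR-211-5p, had 11 reads in LPS 1. None was seen in all libraries of a group.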

How the results depend on the processing

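The log2 fold change of miR-204-5p kept its direction and stayed short of the threshold in each comparison, under 10 alternatives and with each library left out. Under the alternatives it ranged from 3.25 to 3.86 in LPS+AS-IV against LPS (edgeR or DESeq2 adjusted p 0.588 to 0.996), from 0.18 to 0.45 in LPS+AS-IV against Control (0.944 to 1) and from -3.46 to -2.89 in LPS against Control (0.430 to 0.988). With a library left out it ranged from 2.89 to 4.74, from 0.07 to 0.61 and from -4.32 to -2.44 in the same order. With the replicate number as a block it was 3.86, 0.45 and -3.41. Same-numbered libraries correlated between -0.12 and 0.15 in 9 pairs, over 0.1 in 3, which were the pairs of replicate 1. Differently numbered libraries of different groups ran from -0.18 to 0.23. Such correlations cannot exclude a shared rat, dish or batch. The number of miRNAs called in LPS+AS-IV against LPS, 0, was 1 with DESeq2 size factors, without the filter and with the block, 3 by DESeq2, and 0 to 1 with a library left out. In LPS+AS-IV against Control, 2 became 0 with each tag given to 1 miRNA, 3 by DESeq2, and 2 to 3 with a library left out (3 without LPS+AS-IV 2 or Control 1). In LPS against Control, 1 became 2 with DESeq2 size factors, library totals, no filter, the exp column or the block, 3 by DESeq2 or with only the 2 groups, 0 with each tag given to 1 miRNA, and 1 to 3 with a library left out. miR-204-5p was never among them. The difference in mean tag length in LPS against Control, 0.00605 nt, turned to -0.172 nt with hairpin tags and -0.167 nt with each distinct tag once, and ran from -0.0106 (without LPS 3) to 0.0144 nt with a library left out; the cause was not tested. In LPS+AS-IV against Control, 0.427 nt became 0.202 nt with hairpin tags and 0.167 nt with each distinct tag once. Without LPS+AS-IV 2 it was 0.645 nt there and 0.639 nt (0.421 nt with all libraries) in LPS+AS-IV against LPS, each with an exact permutation p of 0.1, the smallest that 2 against 3 libraries allow. The 18 reads of miR-211-5p became 42 with 1 mismatch allowed. That setting for miR-211-5p and the count of tags of any label were chosen after seeing the data.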

Other observations

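In the deposited exp column, whose making is not stated, miR-204-5p had 25, 136 and 423 in LPS+AS-IV, 3, 1 and 19 in LPS, and 69, 46 and 61 in Control, so the value of LPS+AS-IV 3 was furthest below its 681 reads. miR-211-5p had 17 in Control 2 and 1 in LPS+AS-IV 2, equal to its reads.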
